A study of Homo sapiens with 10 samples.

Results

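Chromatin-modifying genes were examined in DU145, a long-used human cell line grown from a prostate carcinoma that had spread to the brain, after knockdown of the transcription factor SOX4. The members are the 141 genes, of 13527 features in the RNA-seq table, whose symbols belong to families of histone methyltransferases, demethylases, acetyltransferases and deacetylases, DNA methylation enzymes, Polycomb and chromobox proteins, bromodomain proteins and ATP-dependent remodellers. The genes were taken by a rule on symbols that did not use their values, but the rule was chosen with earlier results of these data known. DU145 cells carrying a short hairpin RNA against SOX4 (shSOX4, 3 libraries) were compared with cells carrying a scrambled hairpin (shCon, 3 libraries). Both groups were untreated and grown in the same serum-containing medium, and the labels describe no clones or pools of the lines. The series also holds 4 ATAC-seq libraries, of SOX4-overexpressing cells and their vector controls, which were not analysed here.

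Histone marks are written by enzymes that transfer methyl or acetyl groups, removed by demethylases and deacetylases, and read by proteins with chromo- or bromodomains. Remodellers such as SWI/SNF use ATP to slide or evict nucleosomes, and DNA methylation is set by DNMT enzymes and oxidised by TET enzymes. Several of these complexes are known to be mutated or rewired in advanced prostate cancer, including tumours that take on neuroendocrine traits, the process that the series is about.

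Library totals ranged from 31189910 to 43361609 counts. Levels are CPM, counts scaled to library size with TMM factors, unless FPKM, which also corrects for gene length, is named. In bulk RNA, fewer cells of a type and less RNA per cell cannot be told apart. A gene was called changed at a Benjamini-Hochberg adjusted p under 0.05 over all 13527 features (edgeR quasi-likelihood test, two-sided), and changes are on the log2 scale, shSOX4 relative to shCon. SOX4 had 4.55, 6.44 and 6.01 CPM in shSOX4 1 to 3, against 12.9, 10.1 and 8.48 CPM in shCon 1 to 3, and fell by 0.89 (adjusted p = 0.0111, edgeR; 0.0598 without shCon 1). The libraries shSOX4 1 and shCon 3 stood apart from the other 4 on the second principal component (15.7% of the variance). All 6 epithelial markers on the list had a row, with a median change of -0.61: KRT8 (1.33) and KRT18 (1.03) rose, CLDN4 (-1.58), CDH1 (-1.28) and EPCAM (-0.83) fell, and KRT19 (-0.39) did not pass. Their summed level, mostly that of KRT8 and KRT18, was 6827 to 7722 CPM in shSOX4 and 2996 to 4437 CPM in shCon. A row was present for 1 of 5 leukocyte markers (CD68, 44.1 to 52.1 CPM in shSOX4, 95.2 to 113 CPM in shCon), 1 of 4 endothelial markers (CDH5, 4.7 to 6.62 CPM in shSOX4, 0.525 to 0.942 CPM in shCon) and 3 of 6 fibroblast markers (summed 9.55 to 16 CPM in shSOX4, 1.69 to 2.48 CPM in shCon). Every feature of the table had at least 1 CPM in 3 or more libraries. CDH5 and the fibroblast markers PDGFRB and LUM reached 1 CPM in all shSOX4 libraries but not in all shCon libraries. They thus had rows through shSOX4, which favours this direction. The fibroblast marker COL1A1 was above 1 CPM in every library. The part of all these markers in the results was not tested.

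Knockdown of SOX4 was accompanied by changes in both directions among chromatin genes. The SWI/SNF ATPase gene SMARCA4, the histone H3K9 methyltransferase gene SUV39H2, the methyltransferase genes KMT2C and NSD1, the heterochromatin protein gene CBX5 and the cofactor gene ARID5B rose. The SWI/SNF subunit gene SMARCD2, the acetyltransferase gene KAT8, the deacetylase genes HDAC5, HDAC11 and SIRT3 and the methyltransferase gene NSD2 fell. In all, 27 of 141 members rose (19.1%, against 17.0% of all features) and 18 fell (12.8%, against 15.8% of all features), so that 31.9% changed either way, against 32.8% of all features. These shares lay near the background. The roles described below hold 5 to 18 members each. Counts by role or by partner list were not tested against the shares of all features. The values of the groups did not overlap for 79 members (56.0%), against 47.0% of all features. The median change was 0.06 over the members and -0.01 over all features. One of the falls, that of the Y-linked KDM5D, is counted without a level. Among the rises, ARID5B, ARID4A and UHRF1BP1L entered the table through their shSOX4 level, and among the falls CHD5 through its shCon level. Their direction is therefore no support for these counts, which were not recomputed without them.

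Without both libraries that stood apart, 41 members rose (29.1%, against 21.4% of all features) and 25 fell (17.7%, against 19.5%). Without shSOX4 2, 16 rose (11.3%, against 10.4% of all features) and 9 fell (6.38%, against 8.12%). Without shSOX4 3, 11 fell (7.8%, against 9.53%). Of the 44 called members with a level given here, 22 passed in every fit that left out 1 library. Each of the 44 had the direction of the full fit under every alternative in which it was tested; 13 were below the minimum for the test on FPKM and had no value there.

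Promoter sequence was available for 122 of 141 members in RefSeq's table for GRCh38.p14. The 250 bases before the transcription start were searched on both strands for ACAAAG, which reads CTTTGT from the other strand, a core element bound by SOX proteins. It was present in 9 of the 122 (7.38%), in 1 of 24 that rose, in 2 of 15 that fell, and in 13.7% of the 27305 promoters of the table. Among all measured features with a promoter in the table it was present in 10.0% of those that rose, 9.2% of those that fell and 7.68% of those not called. Absence of these letters says nothing about binding elsewhere. Promoters of members held a median of 23 CpG dinucleotides in 250 bases, against 11 over the table and 20 to 22 over the measured features by call. The promoters of SMARCA4 (chr19:10960780-10961029, plus strand) and SMARCD2 (chr17:63842686-63842935, minus strand) are shown as those of the SWI/SNF genes with the largest change in each direction, with 44 and 31 CpG. ARID5B (chr10:61901449-61901698, plus strand, 7 CpG) is shown for its size of change. SMARCAD1 (chr4:94207358-94207607, plus strand), which rose, and KAT14 (chr20:18144849-18145098, plus strand), which fell, are shown because they hold the element, in capitals, starting at -134 and -238 from the start.
SMARCA4: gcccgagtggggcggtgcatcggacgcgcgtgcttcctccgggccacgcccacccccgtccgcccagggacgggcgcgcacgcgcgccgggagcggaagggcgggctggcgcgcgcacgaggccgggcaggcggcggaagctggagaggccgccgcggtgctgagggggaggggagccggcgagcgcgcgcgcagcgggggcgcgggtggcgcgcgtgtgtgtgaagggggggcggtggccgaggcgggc
SMARCD2: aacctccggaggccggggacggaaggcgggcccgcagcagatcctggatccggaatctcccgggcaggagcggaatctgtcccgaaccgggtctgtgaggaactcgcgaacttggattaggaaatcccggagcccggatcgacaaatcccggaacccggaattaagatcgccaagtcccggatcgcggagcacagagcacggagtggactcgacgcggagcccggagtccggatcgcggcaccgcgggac
ARID5B: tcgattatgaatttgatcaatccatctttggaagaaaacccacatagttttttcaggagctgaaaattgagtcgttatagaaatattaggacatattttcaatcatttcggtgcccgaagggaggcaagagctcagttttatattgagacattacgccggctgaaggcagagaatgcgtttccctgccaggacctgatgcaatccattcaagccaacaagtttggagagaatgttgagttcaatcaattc
SMARCAD1: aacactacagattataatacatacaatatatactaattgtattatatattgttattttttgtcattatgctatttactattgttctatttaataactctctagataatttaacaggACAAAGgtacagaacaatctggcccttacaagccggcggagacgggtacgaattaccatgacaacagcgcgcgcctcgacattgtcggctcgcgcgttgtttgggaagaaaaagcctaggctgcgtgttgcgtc
KAT14: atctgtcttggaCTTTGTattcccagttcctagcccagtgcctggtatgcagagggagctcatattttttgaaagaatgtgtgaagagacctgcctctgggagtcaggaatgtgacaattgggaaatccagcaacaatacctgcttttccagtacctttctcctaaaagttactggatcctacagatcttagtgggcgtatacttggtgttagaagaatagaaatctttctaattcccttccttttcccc

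**Figure D1:**
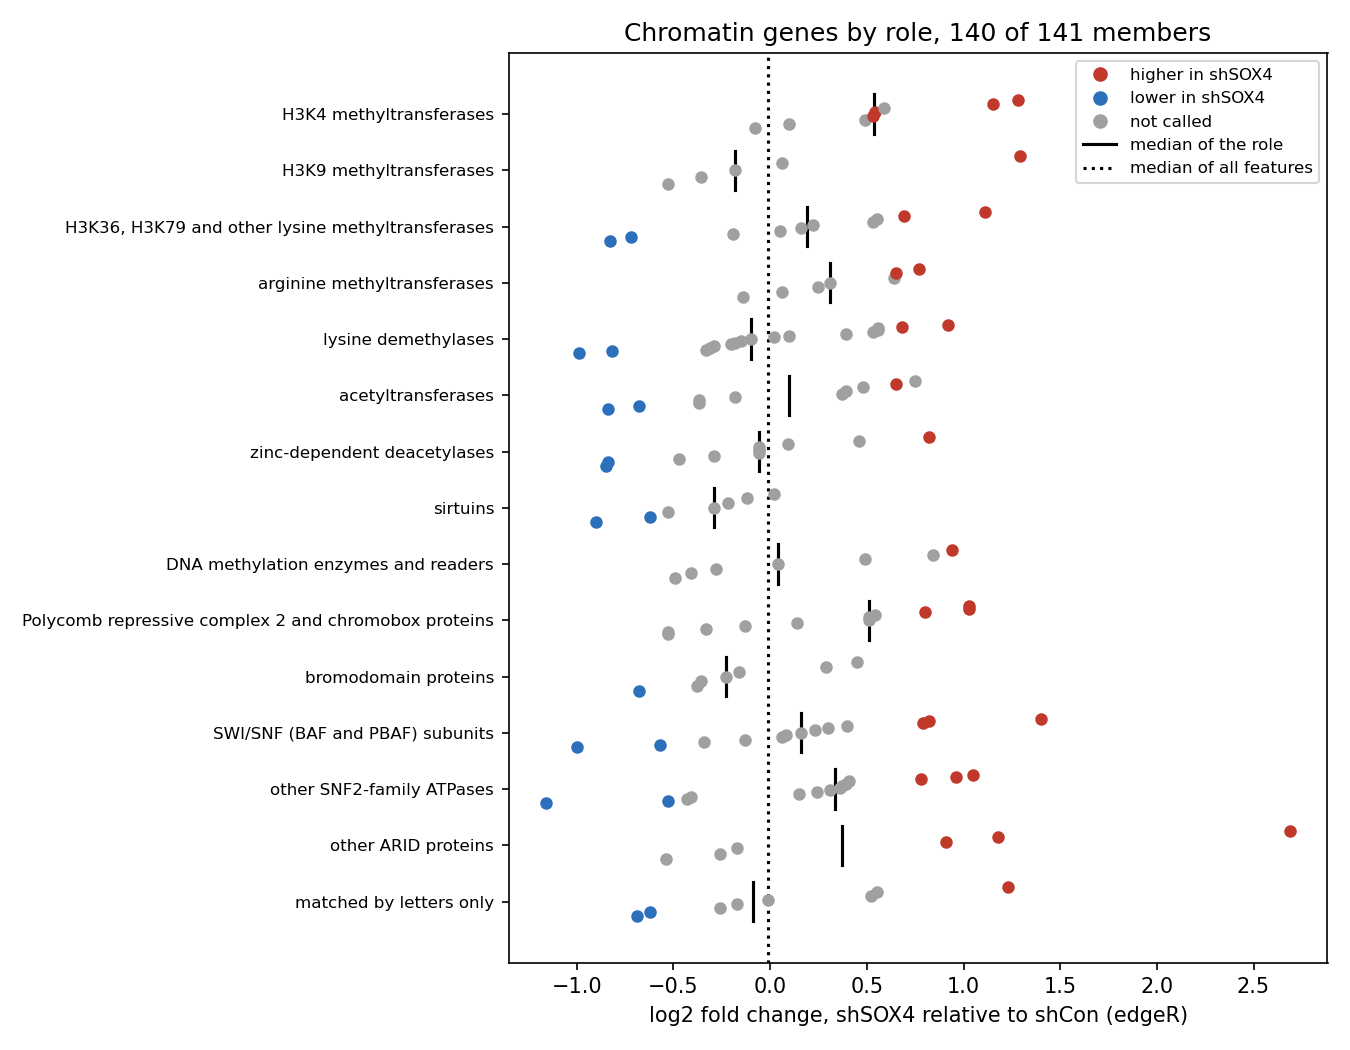
Log2 fold change of shSOX4 relative to shCon (horizontal axis) for 140 members, grouped by role (vertical axis); each point is 1 gene, colours mark the call at an adjusted p under 0.05, short lines are medians of the plotted genes and the dotted line is the median of all features. Called genes lie on the lower side only for sirtuins and bromodomain proteins. They lie on the higher side only for H3K4, H3K9 and arginine methyltransferases, DNA methylation genes, Polycomb and chromobox genes and other ARID proteins. Each of these roles has only 1 to 4 called genes, and over all features 17.0% rose and 15.8% fell. ARID5B lies farthest to the right at 2.69.

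Among acetyltransferases, 1 of 10 rose and 2 fell, with a median of 0.09. KAT8, which acetylates lysine 16 of histone H4, had 32.6, 26.8 and 27 CPM in shSOX4 1 to 3, against 51, 45.2 and 58.2 CPM in shCon 1 to 3. Every shSOX4 library was below every shCon library, and KAT8 fell by 0.84 (SE 0.182, adjusted p = 0.00366, edgeR). CREBBP, an acetyltransferase of enhancers, had 29.7, 38.9 and 28.3 CPM in shSOX4, against 21.7, 21.8 and 18.3 CPM in shCon, and rose by 0.65 (adjusted p = 0.0201, edgeR; 0.141 without shSOX4 2; 0.0753 with limma on log2(FPKM + 1)). Its close relative EP300 had a change of 0.48 and did not pass (adjusted p = 0.107, edgeR). KAT14, a subunit of the ATAC acetyltransferase complex, had a change of -0.68 with overlapping groups (adjusted p = 0.0481, edgeR). The KAT14 call was lost without shCon 1, shCon 2, shSOX4 1 or shSOX4 2 (adjusted p of 0.0554 to 0.206). It was also lost under total-count scaling (adjusted p = 0.0727), by limma-voom (0.0512) and on FPKM (0.15). The gene also overlaps PET117 in the RefSeq annotation. KAT2A, KAT5, KAT7, KAT6A, KAT6B and KAT2B did not pass.

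Methyltransferases of lysine 4 on histone H3, a mark of promoters and enhancers, rose in 4 of 8 cases with none down, and their median was 0.53. Over all features 17.0% rose and 15.8% fell. KMT2C, which works at enhancers, had 7.66, 9.81 and 6.67 CPM in shSOX4, against 3.68, 3.17 and 3.09 CPM in shCon. Every shSOX4 library was above every shCon library, and KMT2C rose by 1.28 (SE 0.242, adjusted p = 0.0015, edgeR). Part of KMT2C is repeated in near-identical copies elsewhere in the genome, so the division of its reads is uncertain. KMT2E, a family member that reads rather than strongly writes the mark, had 7.16, 7.89 and 4.61 CPM in shSOX4, against 3.02, 2.98 and 2.86 CPM in shCon, a rise of 1.15 (adjusted p = 0.00513, edgeR). KMT2D, a relative of KMT2C that also works at enhancers, had 79.6, 91.3 and 72.8 CPM in shSOX4, against 57.7, 50.6 and 59.5 CPM in shCon (0.54, adjusted p = 0.0248, edgeR). KMT2D lost its call without shCon 1, shCon 2 or shSOX4 2 (adjusted p of 0.0524 to 0.15) and on FPKM (0.0844). SETD1B, a promoter methyltransferase, had a change of 0.53 (adjusted p = 0.0489, edgeR). That call was lost without any single library except shCon 3 (adjusted p of 0.0742 to 0.164), with a filter of 1 CPM in every library of a group (0.0501), without newGene loci (0.0525) and on FPKM (0.125). KMT2A (0.49), SETD7 (0.59), KMT2B (0.10) and SETD1A (-0.08) did not pass.

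Of the 5 methyltransferases of lysine 9 on histone H3, the mark of heterochromatin, 1 rose and none fell. SUV39H2 had 8.57, 12.5 and 9.91 CPM in shSOX4, against 5.17, 3.82 and 3.64 CPM in shCon. It rose by 1.29 (SE 0.24, adjusted p = 0.00134, edgeR), while its relative SUV39H1 had a change of 0.06 (adjusted p = 0.84, edgeR). SUV39H2 overlaps the repair gene DCLRE1C at its end in the RefSeq annotation. EHMT2, which writes dimethylation, had 88, 68.7 and 67.7 CPM in shSOX4, against 94, 91.5 and 138 CPM in shCon, and just missed the threshold (-0.53, adjusted p = 0.0503, edgeR). SETDB1 (-0.36) and EHMT1 (-0.18) did not pass either.

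The remaining lysine methyltransferases, among them those of lysine 36 of histone H3 in active gene bodies, went both ways, with 2 of 10 up and 2 down. NSD1, which dimethylates lysine 36, had 21.4, 35.4 and 24.1 CPM in shSOX4, against 14, 13.2 and 10.2 CPM in shCon. It rose by 1.11 (SE 0.226, adjusted p = 0.00239, edgeR). NSD2, which writes the same mark, had 132, 160 and 162 CPM in shSOX4, against 286, 247 and 215 CPM in shCon. It fell by 0.72 (SE 0.166, adjusted p = 0.00522, edgeR), opposite to NSD1. In FPKM, NSD1 stood at 0.112 of the NSD2 level in shSOX4 and at 0.0383 of it in shCon, a ratio chosen after the values were seen and given with no test. SETD6, known to methylate the NF-kB subunit RELA, fell by 0.83 (adjusted p = 0.0135, edgeR; 0.086 without shSOX4 2) and overlaps CNOT1 in the RefSeq annotation. SETD2, which writes trimethylation of lysine 36, had a change of 0.69 (adjusted p = 0.0452, edgeR). Its call was lost without shSOX4 2 or any shCon library (adjusted p of 0.0561 to 0.245), under total-count scaling (0.071) and by limma-voom (0.0548). NSD3 (0.53), SETD9 (0.55) and DOT1L, the enzyme of lysine 79 (-0.19), did not pass.

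Among 7 arginine methyltransferases 2 rose (28.6%, against 17.0% of all features) and none fell (against 15.8%). PRMT6, which acts on arginine 2 of histone H3, had 26.3, 26.6 and 33.8 CPM in shSOX4, against 14.5, 19.7 and 16.7 CPM in shCon, and rose by 0.77 (adjusted p = 0.0094, edgeR). PRMT3, an enzyme of ribosomal protein, rose by 0.65 (adjusted p = 0.0219, edgeR), a call lost without shCon 3, shSOX4 2 or shSOX4 3 (adjusted p of 0.0508 to 0.0964). PRMT1, the family member with the highest FPKM, had 545, 483 and 566 CPM in shSOX4, against 418, 504 and 612 CPM in shCon, with overlapping groups (0.06). PRMT5, the main enzyme of symmetric dimethylation, had a change of 0.25 (adjusted p = 0.253, edgeR).

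Lysine demethylases changed in 5 of 18 cases, 2 upward and 3 downward. KDM5B, which removes methyl groups from lysine 4 of histone H3, had 32.8, 39.9 and 35.2 CPM in shSOX4, against 22.7, 19.2 and 14.9 CPM in shCon. The groups did not overlap, and KDM5B rose by 0.92 (SE 0.199, adjusted p = 0.00351, edgeR). Its relative KDM5A, of the same specificity, had 8.68, 15.7 and 13.6 CPM in shSOX4, against 8.43, 8.79 and 6.53 CPM in shCon. There shSOX4 1 lay within the shCon range, and the rise of 0.68 (adjusted p = 0.0456, edgeR) was lost without any single library except shSOX4 1 (adjusted p of 0.0635 to 0.216), under total-count scaling (0.0822) and by limma-voom (0.0639). KDM4D, a demethylase of lysine 9, fell by 0.99 (adjusted p = 0.0192, edgeR), and this call ended without shCon 1 or shSOX4 2 (adjusted p of 0.0868 to 0.0891). KDM1B, a flavin-dependent enzyme acting on lysine 4, had 5.02, 10.1 and 6.88 CPM in shSOX4, against 13.5, 15.4 and 9.71 CPM in shCon, with overlap between shSOX4 2 and shCon 3 (-0.82, adjusted p = 0.0304, edgeR). The KDM1B call was lost without shCon 1, shCon 2, shSOX4 1 or shSOX4 3 (adjusted p of 0.0703 to 0.103), under total-count scaling (0.0625) and on FPKM (0.0639). KDM1A, the relative known as LSD1, had 89.6, 85.1 and 89.9 CPM in shSOX4, against 86.9, 78.5 and 81.8 CPM in shCon (0.10, adjusted p = 0.654, edgeR).

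Zinc-dependent deacetylases had 1 of 10 up and 2 down. HDAC8 had 14.4, 19.2 and 21.4 CPM in shSOX4, against 10.6, 11.4 and 9.01 CPM in shCon, and rose by 0.82 (SE 0.211, adjusted p = 0.00944, edgeR). HDAC11, the single class IV enzyme, had 18, 17.2 and 12.4 CPM in shSOX4, against 27.1, 26.4 and 32 CPM in shCon, and fell by 0.85 (SE 0.201, adjusted p = 0.00624, edgeR). HDAC5, a class IIa corepressor that shuttles between nucleus and cytoplasm, had 75.5, 62.1 and 38.8 CPM in shSOX4, against 99.7, 94.1 and 122 CPM in shCon. It fell by 0.84 (SE 0.221, adjusted p = 0.0109, edgeR), with shSOX4 3 the lowest library. The nuclear class I enzymes HDAC1 (0.09), HDAC2 (0.46) and HDAC3 (-0.06) did not pass. Of 7 sirtuins, which use NAD, none rose (against 17.0% of all features) and 2 fell (28.6%, against 15.8%), with a median of -0.29. SIRT3, the mitochondrial deacetylase, had 19.1, 13.9 and 14.2 CPM in shSOX4, against 25.9, 26.6 and 35.6 CPM in shCon, and fell by 0.90 (SE 0.208, adjusted p = 0.00531, edgeR). SIRT6, a chromatin-bound sirtuin, had a fall of 0.62 (adjusted p = 0.0291, edgeR) that was lost without shCon 3, shSOX4 2 or shSOX4 3 (adjusted p of 0.091 to 0.11). SIRT1 had a change of -0.12.

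**Figure D2:**
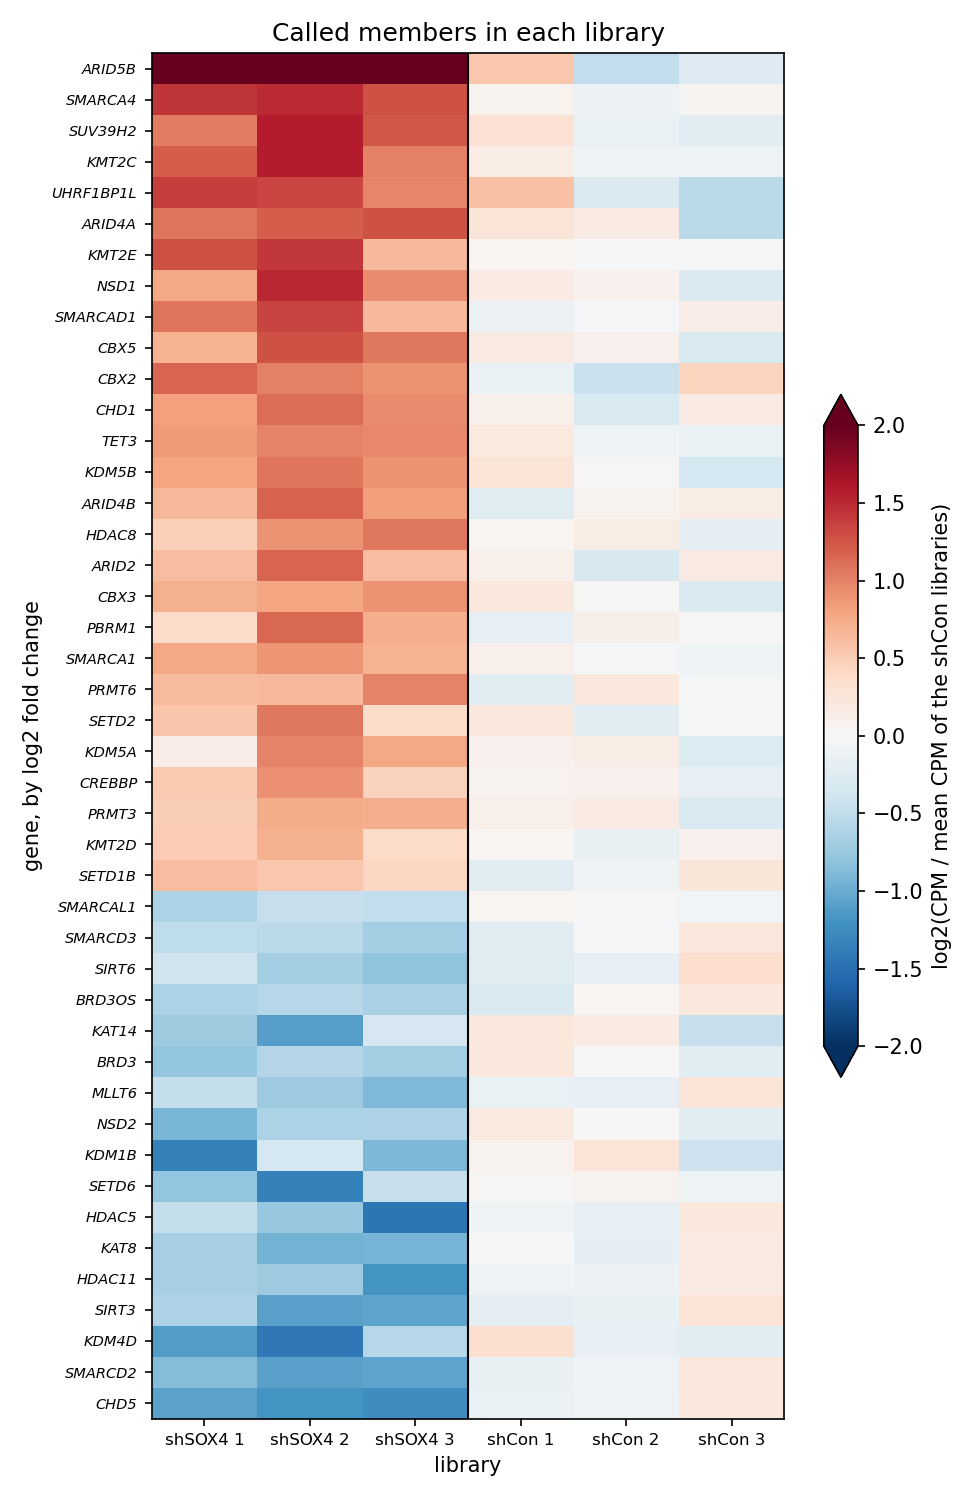
Level of each of the 44 called members (rows, ordered by log2 fold change) in each library (columns), as log2 of CPM over the mean CPM of the shCon libraries; red is above that mean, blue below, and the scale ends at -2 and 2. In shSOX4 1, KDM5A (8.68 CPM) lies near the shCon level, and KDM1B stays palest in shSOX4 2 (10.1 CPM).

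Enzymes and readers of DNA methylation had 1 of 7 up and none down. TET3, which oxidises methylcytosine, had 10.9, 12 and 11.7 CPM in shSOX4, against 6.92, 5.67 and 5.48 CPM in shCon, and rose by 0.94 (SE 0.207, adjusted p = 0.00394, edgeR). The maintenance methyltransferase gene DNMT1 had 127, 131 and 130 CPM in shSOX4, against 153, 145 and 172 CPM in shCon, without overlap (-0.28, adjusted p = 0.174, edgeR). UHRF1, which recruits DNMT1 to newly copied DNA, had 85.8, 82.7 and 98.5 CPM in shSOX4, against 112, 119 and 123 CPM in shCon (-0.41, adjusted p = 0.0592, edgeR). The de novo enzymes DNMT3A (-0.49, adjusted p = 0.0501) and DNMT3B (0.49, adjusted p = 0.129, both edgeR) did not pass.

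In Polycomb repressive complex 2 and the chromobox family 3 of 11 rose and none fell, with a median of 0.51. The share that rose was 27.3%, against 17.0% of all features, of which 15.8% fell. The chromobox proteins include the heterochromatin proteins HP1, which bind methylated lysine 9, and Polycomb readers of methylated lysine 27. CBX5, HP1 alpha, had 91.3, 137 and 118 CPM in shSOX4, against 64.3, 59.9 and 45.8 CPM in shCon, and rose by 1.03 (SE 0.194, adjusted p = 0.0015, edgeR). CBX3, HP1 gamma, had 92.8, 98.6 and 106 CPM in shSOX4, against 65.9, 57.8 and 46.6 CPM in shCon, and rose by 0.80 (SE 0.175, adjusted p = 0.00369, edgeR). CBX3 has processed pseudogenes, and how reads were divided with them is not known. CBX1, HP1 beta, had 57.1, 91.6 and 97.8 CPM in shSOX4, against 94.7, 79.1 and 50.3 CPM in shCon, with wide overlap (0.14, adjusted p = 0.69, edgeR). CBX2, a Polycomb subunit, had 22.9, 20.4 and 18.9 CPM in shSOX4, against 9.27, 7.47 and 13.8 CPM in shCon, and rose by 1.03 (SE 0.232, adjusted p = 0.00458, edgeR). The Polycomb readers CBX8 (0.54), CBX7 (-0.53) and CBX6 (-0.13) did not pass. EED had 24.3, 24.2 and 25.1 CPM in shSOX4, against 18.1, 19.4 and 14.2 CPM in shCon, without overlap, but just missed the threshold (0.51, adjusted p = 0.0508, edgeR). SUZ12 (0.51) and EZH1, a catalytic subunit (-0.53), did not pass.

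Of 7 bromodomain proteins none rose and 1 fell. BRD3, a reader of acetylated histones of the BET family, had 25, 28.3 and 26.8 CPM in shSOX4, against 49.2, 42.6 and 36.3 CPM in shCon, and fell by 0.68 (adjusted p = 0.0119, edgeR; 0.056 without shCon 1). BRD3OS, which matches by letters, overlaps BRD3 from the opposite strand, and how reads of the overlap were assigned is not known. It had a change of -0.62 (adjusted p = 0.0211, edgeR), lost without shCon 2, shSOX4 2 or shSOX4 3 (adjusted p of 0.0683 to 0.0727) and on FPKM (0.0971). BRD2, of the same family, had a change of -0.23 and did not pass (adjusted p = 0.246, edgeR).

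SWI/SNF subunits changed in 5 of 13 cases, 3 upward and 2 downward. SMARCA4, the ATPase also called BRG1, had 44.8, 46.6 and 40.1 CPM in shSOX4, against 17.4, 15.3 and 17.2 CPM in shCon. The groups stood far apart, and SMARCA4 rose 2.63-fold (log2 1.40, SE 0.178, 95% interval 1.02 to 1.78, adjusted p = 6.56e-05, edgeR), between 1.34 and 1.47 when 1 library was left out. The alternative ATPase SMARCA2 had 13.1, 15.2 and 12 CPM in shSOX4, against 14.6, 11.4 and 9.94 CPM in shCon (0.16, adjusted p = 0.58, edgeR). SMARCD2, an accessory subunit, had 140, 120 and 123 CPM in shSOX4, against 229, 240 and 294 CPM in shCon. It fell to 50.2% of the shCon level (SE 0.162 and 95% interval -1.34 to -0.65 on the log2 scale, adjusted p = 0.000522, edgeR). SMARCD3, of the same subunit family, had a fall of 0.57 (adjusted p = 0.0333, edgeR), lost without shCon 2, shCon 3, shSOX4 2 or shSOX4 3 (adjusted p of 0.0816 to 0.116), and it overlaps CHPF2 in the RefSeq annotation. SMARCD1 had a change of 0.30 (adjusted p = 0.168, edgeR). Both PBRM1 (0.79, adjusted p = 0.0219, edgeR) and ARID2 (0.82, adjusted p = 0.026, edgeR), subunits of the PBAF form of the complex, rose. BRD7, another PBAF subunit, counted here with the bromodomain proteins, had a change of -0.36 and did not pass (adjusted p = 0.161, edgeR). The PBRM1 call was lost without shCon 1 or shSOX4 2 (adjusted p of 0.0746 to 0.141) and on FPKM (0.174), and that of ARID2 without shCon 1, shCon 2 or shSOX4 2 (adjusted p of 0.0508 to 0.151). ARID1A (0.08) and ARID1B (0.06), which define the BAF form, and the core subunit SMARCB1 (-0.13) did not pass.

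Other ATPases of the SNF2 family had 3 of 14 up and 2 down. SMARCA1, an ISWI remodeller, had 17.9, 19.3 and 16.9 CPM in shSOX4, against 11.2, 10.3 and 9.91 CPM in shCon, and rose by 0.78 (SE 0.188, adjusted p = 0.00643, edgeR). CHD1, which binds methylated lysine 4, had 5.9, 7.3 and 6.43 CPM in shSOX4, against 3.59, 2.71 and 3.76 CPM in shCon, and rose by 0.96 (adjusted p = 0.0092, edgeR). SMARCAD1, which helps to keep heterochromatin after replication, rose by 1.05 (adjusted p = 0.0089, edgeR; 0.0601 without shSOX4 2). CHD5, a remodeller mainly known from neurons, had 1.11, 1.02 and 0.982 CPM in shSOX4, against 2.12, 2.18 and 2.68 CPM in shCon. The fall was 1.16 (adjusted p = 0.0148, edgeR), and the call was lost without shSOX4 2 or shSOX4 3 (adjusted p of 0.0512 to 0.0552). CHD5 met 1 CPM in all libraries of shCon but not of shSOX4. SMARCAL1, a DNA annealing helicase, had a fall of 0.53 (adjusted p = 0.0301, edgeR), lost without any single library except shCon 3 (adjusted p of 0.0778 to 0.104) and on FPKM (0.0591). CHD4, the main ATPase of the NuRD complex, had 154, 158 and 173 CPM in shSOX4, against 128, 133 and 131 CPM in shCon (0.31, adjusted p = 0.123, edgeR).

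Among 6 other ARID proteins 3 rose and none fell. ARID5B, known as a cofactor of the demethylase PHF2, had 7.3, 10.6 and 7.8 CPM in shSOX4, against 1.91, 0.941 and 1.11 CPM in shCon. It rose by 2.69 (SE 0.31, 95% interval 2.02 to 3.35, adjusted p = 2.57e-05, edgeR), the largest change of any member in this fit. ARID4A and ARID4B, subunits of the Sin3 corepressor, had changes of 1.18 (adjusted p = 0.0132, edgeR) and 0.91 (adjusted p = 0.0329, edgeR). The ARID4B call was lost without shCon 1, shCon 2, shSOX4 2 or shSOX4 3 (adjusted p of 0.0623 to 0.144). Every feature of the table had at least 1 CPM in 3 or more libraries. ARID5B, ARID4A, UHRF1BP1L, TET2, KAT2B and KDM7A were at 1 CPM in all shSOX4 libraries but not in all shCon libraries, and so entered the table through shSOX4; their direction is no support for the counts. ARID3A (-0.54), ARID5A and ARID3B did not pass.

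The rule also took in 8 genes that were set apart as matched by letters and not modifiers or remodellers themselves, of which 1 rose and 2 fell. This grouping did not ask whether a gene, such as those of the MLLT names, acts as a chromatin reader or cofactor. UHRF1BP1L, now called BLTP3B, a lipid transfer protein, had 3.08, 3 and 2.32 CPM in shSOX4, against 1.77, 0.967 and 0.816 CPM in shCon (1.23, adjusted p = 0.019, edgeR). Its call was lost without shCon 2, shCon 3 or shSOX4 2 (adjusted p of 0.0587 to 0.0626) and without both libraries that stood apart (0.0717). MLLT6, a fusion partner of KMT2A in leukaemia, fell by 0.69 (adjusted p = 0.0114, edgeR), and this call ended without shSOX4 2 or shSOX4 3 (adjusted p of 0.0522 to 0.0592). Without these genes, 26 of 133 members rose and 16 fell.

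Balance between close paralogues was described by the log2 ratio of CPM within each library, which does not depend on library scaling. Of 17 listed pairs 16 were measured, and in 8 the groups did not overlap, 4 with a higher and 4 with a lower ratio in shSOX4. For single features, the groups did not overlap in 47.0%, and no such share was computed for ratios of other genes. With 3 libraries a group an exact two-sided permutation test cannot go below 0.1, the value of each of these 8 (0.2 after Benjamini-Hochberg adjustment over 16 pairs). The SMARCA2 to SMARCA4 ratio was -1.77, -1.61 and -1.74 in shSOX4, against -0.25, -0.42 and -0.79 in shCon. In FPKM, SMARCA2 stood at 0.353 of SMARCA4 in shSOX4 and at 0.666 in shCon. The SMARCD3 to SMARCD1 ratio was -2, -1.96 and -2.12 in shSOX4, against -1.30, -1.11 and -1.09 in shCon. CHD3 to CHD4, alternative NuRD ATPases, differed by -0.74. On the other side, SUV39H2 to SUV39H1 was -2.41, -1.70 and -2.15 in shSOX4, against -2.92, -3.20 and -3.81 in shCon, a difference of 1.22. DNMT3B to DNMT3A was -1.30, -1.45 and -1.73 in shSOX4, against -2.49, -2.52 and -2.40 in shCon, a difference of 0.98, although neither gene passed on its own. The SMARCC1 to SMARCC2 ratio differed by 0.57. The KAT2B to KAT2A ratio differed by 0.93, but KAT2B entered the table through its shSOX4 level, so this direction is no support for the count of pairs. The groups overlapped for CREBBP to EP300 (0.17), ARID1B to ARID1A (-0.03), KAT6B to KAT6A (0.06), HDAC1 to HDAC2 (-0.36), KDM5B to KDM5A (0.30), EHMT1 to EHMT2 (0.34), UHRF2 to UHRF1 (0.44) and KDM6B to KDM6A (-0.94).

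**Figure D3:**
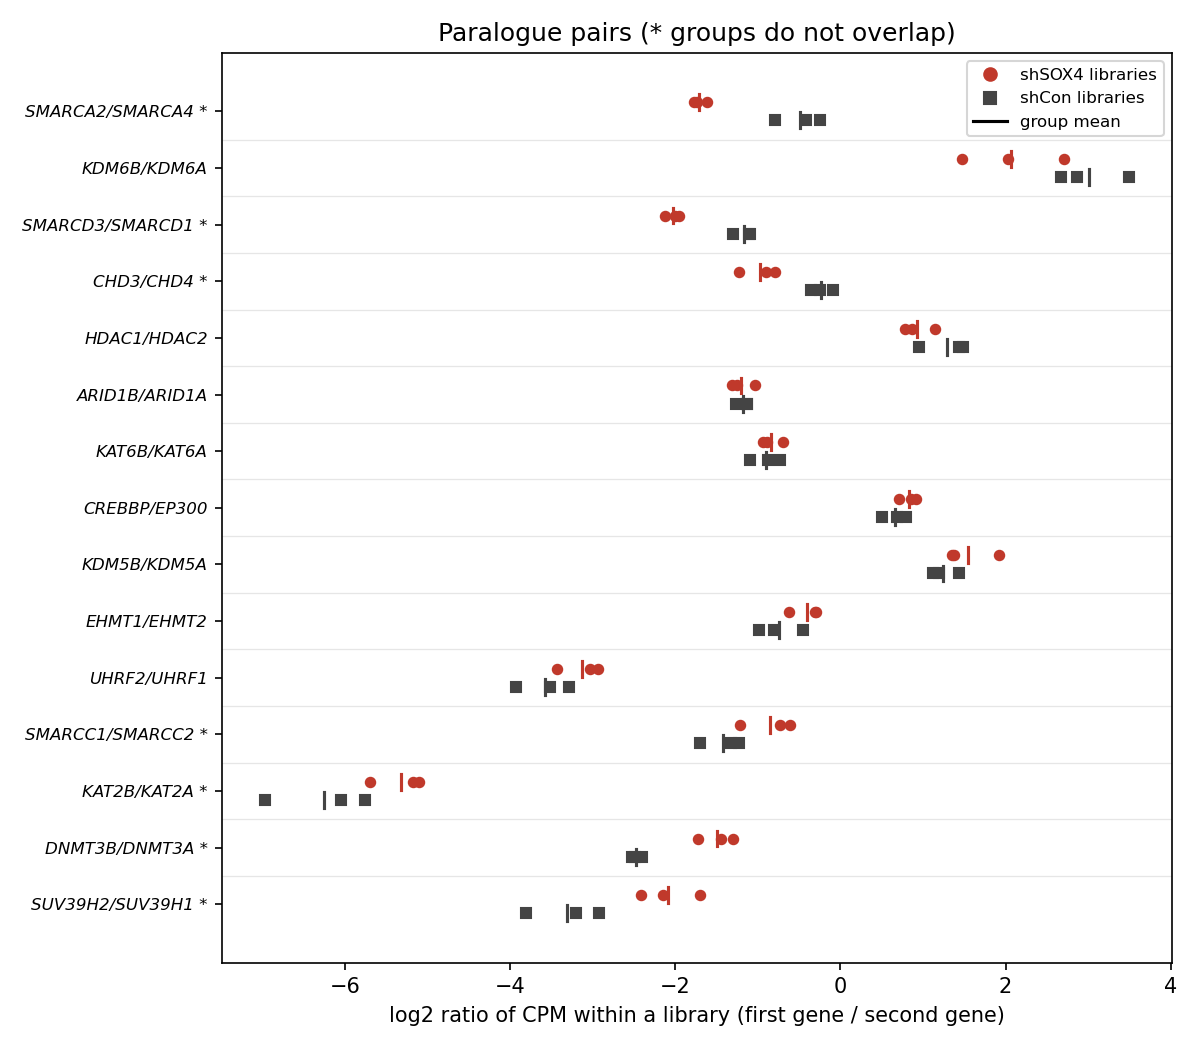
Log2 ratio of CPM between the genes of the paralogue pairs shown (rows) in each library, with shSOX4 libraries as circles above shCon libraries as squares, short lines at group means and asterisks where groups do not overlap. The SMARCA2 to SMARCA4 ratio lies between -1.77 and -1.61 in shSOX4, left of the shCon values of -0.79 to -0.25.

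Transcript length differed by call, among members and over all features. The length implied by deposited count and FPKM had a median of 7.09 kb over members that rose, 3.37 kb over those that fell and 4.78 kb over those not called. Over all features the medians were 3.47, 2.79 and 2.92 kb in the same order. The ratio of count to FPKM was not constant within a gene, so the implied length, its median over the libraries, is approximate. In shSOX4 1 to 3, DNMT3A had 14.5, 13.7 and 15.3 CPM but 3.26, 4.41 and 1.99 FPKM. Of 92 members longer than 4.01 kb, the longest of 3 classes of equal size over all features, 22 rose and 7 fell, and of 16 members up to 2.21 kb, 2 rose and 4 fell. Among all features of the long class 21.9% rose and 12.8% fell, and in the short class 15.7% rose and 16.1% fell. Across the 141 members Spearman's rho of length with log2 fold change was 0.31, and 0.12 across all features; genes share the 6 libraries and are not independent. The part of length in the calls was not tested.

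**Figure D4:**
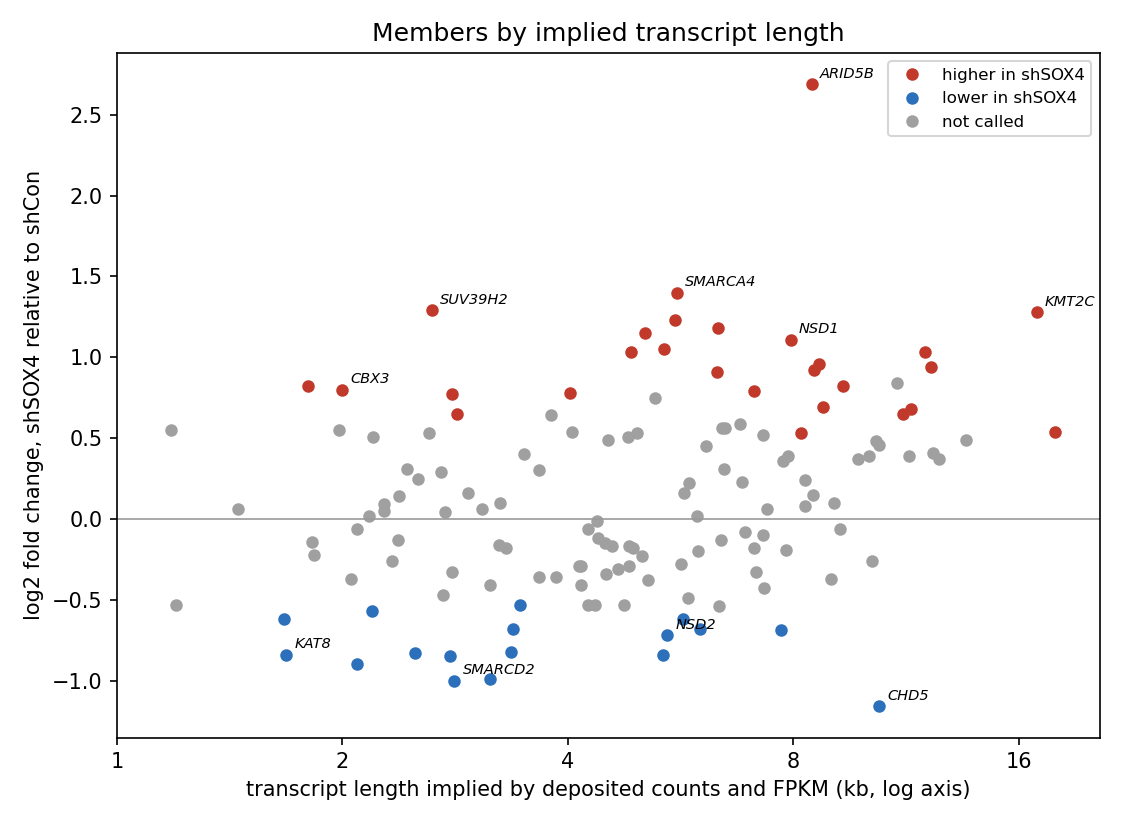
Log2 fold change of shSOX4 relative to shCon (vertical axis) against the transcript length implied by the deposited counts and FPKM (kb, log axis) for 140 members; each point is 1 gene, coloured by call. Risen genes have a median of 7.09 kb and fallen genes of 3.37 kb, although SUV39H2 and CBX3 rose among shorter genes and CHD5 fell among longer ones.

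Partner subunits and modifiers outside the symbol rule were taken from lists of 159 genes, of which 151 had a row. In these, 27 rose (17.9%, against 17.0% of all features) and 12 fell (7.95%, against 15.8%), with a median of 0.09. In the list of 36 genes drawn up for ISWI, INO80, SRCAP and TIP60 complexes 9 rose and 1 fell. The list also holds the remodellers ATRX and HELLS, both among the 9, so these are not all partners of the named complexes. INO80D, also among the 9, had 1.99, 2.69 and 2.14 CPM in shSOX4, against 1.27, 0.941 and 1.14 CPM in shCon. It was above 1 CPM in every shSOX4 library but not in shCon 2, so its direction is no support for the count. Other partner genes were not checked for entry into the table through 1 group. The count was not recomputed without ATRX, HELLS and INO80D. HELLS rose by 0.60 (adjusted p = 0.0478, edgeR), a call lost without any single library except shSOX4 1 (adjusted p of 0.0573 to 0.166). ATRX, a heterochromatin remodeller, had 7.13, 9.72 and 6.1 CPM in shSOX4, against 1.56, 1.64 and 1.84 CPM in shCon, and rose by 2.19 (SE 0.271, adjusted p = 5.01e-05, edgeR). MORF4L2 rose by 0.92, and ING3, a TIP60 complex subunit, by 0.95 (adjusted p = 0.0126, edgeR; 0.0823 without shSOX4 2). Of 29 corepressor partners of deacetylases 4 rose and 4 fell, among them MTA1 of NuRD and HMG20B of CoREST down and TBL1XR1 of NCoR up. MTA1 had 102, 87.8 and 80.2 CPM in shSOX4, against 170, 147 and 185 CPM in shCon (-0.90, adjusted p = 0.00125, edgeR). HMG20B had 279, 186 and 177 CPM in shSOX4, against 404, 369 and 502 CPM in shCon (-0.99, adjusted p = 0.00198, edgeR). TBL1XR1 had 26.9, 34.9 and 26.2 CPM in shSOX4, against 14, 13.7 and 5.92 CPM in shCon (1.38, adjusted p = 0.00232, edgeR). Among 25 Polycomb partners 4 rose and 2 fell, and PHC1, with 11.9, 11.9 and 11.2 CPM in shSOX4 and 24.9, 26.1 and 23 CPM in shCon, fell by 1.08 (adjusted p = 0.00064, edgeR). PHC2 fell by 0.85 and MTF2, an accessory subunit of Polycomb repressive complex 2, rose by 1.14.

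Of 36 other modifiers 7 rose and 4 fell. TDG, the glycosylase that removes oxidised methylcytosine after TET enzymes, had 15.2, 30.5 and 27.4 CPM in shSOX4, against 8.72, 6.99 and 4.43 CPM in shCon, and rose by 1.85 (adjusted p = 0.000376, edgeR). PHF2, the demethylase that works with ARID5B, had 24, 25.8 and 27 CPM in shSOX4, against 54, 49.6 and 48.9 CPM in shCon, and fell by 0.99 (adjusted p = 0.000774, edgeR). ARID5B rose, but it entered the table through its shSOX4 level, so its direction is no support for a contrast with PHF2. ATAD2, a bromodomain ATPase, rose by 1.30. Of 13 COMPASS and menin partners 2 rose and 1 fell. The changes were 0.67 for DPY30, lost without shSOX4 2 or shSOX4 3 (adjusted p of 0.0601 to 0.0905), 1.05 for HCFC2, lost without shCon 1, shCon 3, shSOX4 1 or shSOX4 3 (0.0719 to 0.102), and -0.51 for ASH2L, lost without shCon 1, shCon 2, shSOX4 1 or shSOX4 2 (0.0928 to 0.125). Of 12 SWI/SNF partners 1 rose, PHF10 of PBAF (0.57), lost without any single library except shSOX4 1 (0.0619 to 0.153). Proliferation markers had 4 of 20 up and 2 down, with 10 positive and 10 negative changes and a median of 0.03. RRM1 (1.64), MCM6 (1.06), TOP2A and PCNA rose, and MCM4 and AURKB fell. The TOP2A call was lost in 1 fit that left out 1 library (adjusted p = 0.101, edgeR). The calls of PCNA, MCM4 and AURKB were each lost in 4 or 5 such fits (adjusted p of 0.0509 to 0.174). The summed level of the 20 proliferation markers was 3166 to 3871 CPM in shSOX4 and 3278 to 3533 CPM in shCon. Their part in the results was not tested.

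An adjusted p under 0.05 is given for 58 members in the authors' deposited table, among them all 45 called here, each in the same direction. The authors' deposited table gives log2 fold changes of 1.35 for SMARCA4, 2.42 for ARID5B, 1.19 for KMT2C and -0.96 for SMARCD2.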

How the data were processed

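Poly-A selected RNA of 6 DU145 libraries was read from both ends, per the labels' protocols, which name more than 1 kit and do not assign kits to libraries. One deposited table held whole-number counts per gene, not normalized, and FPKM, in which the authors corrected for length and depth, per the file headers. It also held the authors' log2 fold change and adjusted p-value, per the file headers. Columns lettered NC were taken as shCon and SH as shSOX4, by number. Tools in the submitters' processing notes, for both assays together, are deepTools 2.07, MACS2 2.1.1, HISAT2, STAR and Bowtie2, with build hg19. Counter, strand setting and annotation: not given in the sources used here.

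Counts were compared in edgeR 4.0.16 (R 4.3.3) with TMM scaling, filterByExpr, which removed no feature, and group as the only term. SE is the fold change over the square root of its F value. The labels name no separate cultures; p-values therefore reflect spread among libraries, which may be technical. Within groups, chi-square over its degrees of freedom was 28.8 to 139 for each library pair, so none was a duplicate. Members and lists were chosen with earlier results of these data known. Named were the 12 largest called rises and falls at a mean of 5 CPM or more. Also named were up to 3 members of each role and 3 called genes of each partner list by p, and fixed reference genes and pairs. The NSD1 to NSD2 ratio, CBX1, PRMT1 and the remaining called members were named after their values were seen. So were HELLS, INO80D, BRD7, TOP2A, PCNA, MCM4 and AURKB. All 141 members' identifiers matched a current symbol. Alternatives were RLE and total-count scaling, other filters, DESeq2 1.42.0, limma-voom and limma 3.58.1 on log2(FPKM + 1) for genes averaging 1 FPKM or more, a replicate block, no newGene loci, and libraries left out. Tests were tried on simulated counts first. Some members and pairs that enter the counts are not reported here by name.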

Additional observations from a re-analysis of the deposited data

How the results depend on the processing

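The number of members that rose was 27 in the full fit and 25 to 34 under RLE or total-count scaling, other filters, DESeq2, limma-voom and without newGene loci. It was 13 of 116 tested with limma on log2(FPKM + 1), or 11.2% against 13.8% of all features, so that the members' share lay below that of all features and not above it as in the full fit (19.1% against 17.0%). It was 41 without both shSOX4 1 and shCon 3 (29.1% against 21.4%). The number that fell was 18, 13 to 25 under these settings. Leaving out 1 library gave 16 to 35 rises and 9 to 19 falls. For paralogue pairs, 8 of 16 had no overlap, 9 on FPKM and 8 to 13 without 1 library, where fewer values make overlap rarer by construction. No called member changed direction in any alternative that tested it; 13 of the 44 with a level had no value on FPKM, and all 44 had one in the other 15 alternatives.

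Same-numbered libraries deviated with correlations of -0.29, 0.159 and -0.293, and none matched its own number best, so the numbers were not taken as pairs. With the replicate block 20 members rose and 13 fell, and 12 calls with a level were lost. Leaving out shSOX4 2 ended 20 of 44 calls and leaving out both libraries that stood apart ended 1 and added 22; the cause was not tested. Depth limits genes near 1 CPM most, such as CHD5, TET2 and KDM7A.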
